A study of Mus musculus with 7 samples.

Results

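The genes described here are the detected vomeronasal receptor genes of the mouse, type 1 (Vmn1r) and type 2 (Vmn2r). They were chosen by their symbol and their summed read count: every gene with a numbered Vmn1r or Vmn2r symbol was taken whose counts over all 7 libraries summed to at least 10. The rule kept 181 of 327 such genes, 85 of 206 type 1 genes and 96 of 121 type 2 genes. Since the summed count chose them, a high or low total is no finding here.

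Olfactory epithelium was taken whole from mouse pups on postnatal day 7 and its RNA was sequenced. One library came from an Amigo1+/+ mouse (WT), 3 came from Amigo1-/- mice (KO) and 3 came from Amigo1neo/neo mice (neo). In neo mice a neomycin selection cassette stands in the Amigo1 locus in place of the coding region, and KO mice lack Amigo1 without being labelled as carrying that cassette. Amigo1 encodes a cell adhesion protein. KO and neo therefore both lack Amigo1, whereas only the single WT library carries the gene. A code and a date-like number in the sample names are the same in WT and KO and different in neo, and the labels explain neither. Whatever they stand for and the cassette cannot be told apart in any comparison of neo. Nothing in the labels ties each library to a separate animal, so p-values cover only the variation among these libraries, part of which may be technical.

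The vomeronasal organ is a separate sensory organ at the base of the nasal septum that detects pheromones and other social chemical cues. Its apical neurons carry type 1 receptors with the G protein subunit Gαi2, and its basal neurons carry type 2 receptors with Gαo. Type 2 neurons also use H2-Mv molecules, nonclassical class I major histocompatibility proteins, and many co-express a family C receptor of the group Vmn2r1 to Vmn2r7. Both neuron types signal through the cation channel Trpc2. The main olfactory epithelium smells mainly with another family, the Olfr genes. The labels name no vomeronasal organ among the dissected tissue.

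Promoter sequences of 4 receptors are shown because these genes carry the pattern described below. They are the members of each type with the most counts whose start in RefSeq (GRCm38.p6) is also the start in the deposited annotation. Each sequence runs 5′ to 3′ on the gene's strand from 250 bases before the start to 50 bases after it. Capitals mark a searched motif, which Vmn1r32 and Vmn2r89 hold and Vmn1r71 and Vmn2r1 do not. Vmn1r32 lies on the minus strand at chr6:66559659-66559958, Vmn1r71 on the minus strand at chr7:10749489-10749788, Vmn2r89 on the plus strand at chr14:51451712-51452011 and Vmn2r1 on the plus strand at chr3:64081392-64081691.
Vmn1r32: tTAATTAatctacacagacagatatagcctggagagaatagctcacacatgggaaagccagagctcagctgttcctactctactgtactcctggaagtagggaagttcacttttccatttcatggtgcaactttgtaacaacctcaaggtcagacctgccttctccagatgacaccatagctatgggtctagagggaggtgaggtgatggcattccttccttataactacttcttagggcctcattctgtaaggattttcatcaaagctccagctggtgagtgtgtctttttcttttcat
Vmn1r71: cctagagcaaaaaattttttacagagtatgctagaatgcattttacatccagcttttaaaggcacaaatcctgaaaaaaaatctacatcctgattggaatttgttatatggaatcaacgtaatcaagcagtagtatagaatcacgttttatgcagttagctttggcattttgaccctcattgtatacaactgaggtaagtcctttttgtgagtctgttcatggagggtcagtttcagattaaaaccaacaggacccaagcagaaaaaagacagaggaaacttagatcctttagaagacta
Vmn2r89: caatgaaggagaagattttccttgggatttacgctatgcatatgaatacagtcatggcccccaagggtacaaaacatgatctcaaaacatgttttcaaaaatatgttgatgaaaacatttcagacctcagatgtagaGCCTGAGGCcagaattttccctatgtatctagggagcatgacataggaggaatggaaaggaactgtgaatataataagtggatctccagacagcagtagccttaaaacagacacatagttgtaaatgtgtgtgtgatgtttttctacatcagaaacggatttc
Vmn2r1: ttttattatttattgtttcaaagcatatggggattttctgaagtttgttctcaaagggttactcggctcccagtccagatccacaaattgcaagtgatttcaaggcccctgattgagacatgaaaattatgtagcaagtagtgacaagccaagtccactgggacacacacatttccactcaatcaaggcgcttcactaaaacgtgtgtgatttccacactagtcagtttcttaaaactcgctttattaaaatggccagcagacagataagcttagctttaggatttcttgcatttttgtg

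The table of promoters held 74 of the 85 type 1 and 93 of the 96 type 2 members, of which 49 and 69 had the deposited start. The motif TAATTA, the core bound by many homeodomain proteins, was found in 9.46% of the type 1 and 16.1% of the type 2 promoters, against 5.31% of all 27025 promoters. The motif GCCNNNGGC, which AP-2 factors bind, was found in 0 of 74 type 1 and 8 of 93 type 2 promoters, against 16.5% of all promoters. Both motifs read the same on either strand and do not contain each other. The shares cover all 74 type 1 and 93 type 2 promoters, including those without the deposited start. Base composition was not compared between the sets, and a match describes the letters only.

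Total gene counts were 14879415 to 21343058 per library. Amigo1 had 744 counts in WT, 0 to 16 in the KO libraries and 1 to 11 in the neo libraries, so the targeted gene was low in every library labelled KO or neo. Reads that mapped to several places made up 14.5 to 19.6% of reads and are in no gene row. Xist, the RNA of the inactive X chromosome, was at 643.3 CPM in WT, 1144.1 CPM in neo replicate 1 and at most 4.18 CPM in the other libraries. CPM is the count scaled to a common library size after TMM normalisation.

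Vomeronasal receptors of both types were high in 1 library of each genotype and low in others of the same genotype. Type 1 members summed to 550 counts in WT, to 46, 660 and 88 counts in KO replicates 1 to 3, and to 1086, 201 and 78 counts in neo replicates 1 to 3. Scaled, these sums were 25.3 CPM in WT, 2.82, 35.4 and 4.86 CPM in KO, and 46.2, 12 and 5.18 CPM in neo. The WT library, KO replicate 2 and neo replicate 1 were thus high, neo replicate 2 was intermediate, and the other 3 libraries were low. The exact Poisson 95% interval of neo replicate 2 reached 13.8 CPM and overlapped no other library's interval; such intervals cover counting error only.

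Type 2 members gave the same order of the high libraries. They summed to 1079 counts in WT, to 95, 1293 and 159 counts in KO, and to 1930, 346 and 111 counts in neo, in replicate order. The scaled sums were 49.6 CPM in WT, 5.82, 69.3 and 8.78 CPM in KO, and 82.1, 20.7 and 7.38 CPM in neo. In type 1 the highest library, neo replicate 1, stood 16.4-fold above the lowest, KO replicate 1, and in type 2 it stood 14.1-fold above that library. Within KO alone the range was 12.6-fold in type 1 and 11.9-fold in type 2, and within neo it was 8.92-fold and 11.1-fold. In bulk tissue, fewer receptor neurons and less receptor RNA per neuron cannot be told apart.

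**Figure D1:**
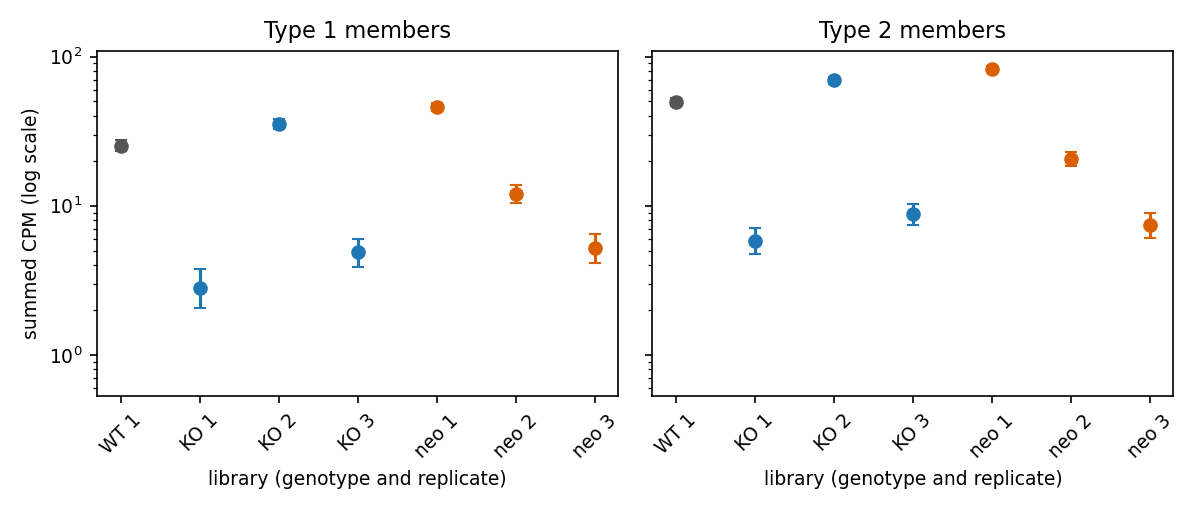
Summed level of the 85 type 1 members (left) and 96 type 2 members (right) in each of the 7 libraries, in CPM on a log scale; bars are exact Poisson 95% intervals, which cover counting error only. Type 1 points run from 2.82 to 35.4 CPM in KO and from 5.18 to 46.2 CPM in neo, and the ranges of KO and neo overlap in both panels.

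The genotype means differed by less than the spread within each genotype. Type 1 sums were 14.4 CPM ± 18.2 (SD, n = 3) in KO and 21.1 CPM ± 22.0 (SD, n = 3) in neo, a log2 ratio of 0.56. Type 2 sums were 28.0 CPM ± 35.8 (SD, n = 3) in KO and 36.7 CPM ± 39.9 (SD, n = 3) in neo, a log2 ratio of 0.39. Leaving out neo replicate 1 turned both ratios negative. Without neo replicate 1 the log2 ratios were -0.74 in type 1 and -1.0 in type 2, and without KO replicate 2 they were 2.46 and 2.33. The type 2 ratio also turned negative without KO replicate 1 (-0.09) and without KO replicate 3 (-0.03), where the type 1 ratio was 0.07 and 0.15. No test was made of these sums over chosen genes.

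The proportion of the 2 receptor types ranged from 1.42 to 2.07 while their sums ranged 14.1-fold or more. Type 2 counts were 1.96 times type 1 counts in WT, 2.07, 1.96 and 1.81 times in KO, and 1.78, 1.72 and 1.42 times in neo. The lowest ratio, in neo replicate 3, had an exact 95% interval of 1.06 to 1.93, and the ratio in KO replicate 1 had one of 1.44 to 3.0. Apical and basal receptor classes were thus high in the same libraries.

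The breadth of detection followed the same libraries. At least 1 read was counted for 177 of the 181 members in WT, for 58, 180 and 83 members in KO, and for 180, 141 and 77 members in neo, in replicate order. Only 29 members were counted in all 7 libraries, and 55 had no read in KO replicates 1 and 3 and neo replicate 3 together. A count of 0 allows up to 3 reads in such a library.

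Gene by gene, WT, KO replicate 2 and neo replicate 1 were the 3 highest libraries for 50 of 85 type 1 members (58.8%) and 79 of 96 type 2 members (82.3%). The same 3 libraries came highest for 369 of 8095 other genes with 10 to 319 summed counts (4.56%), the count range of the members. These libraries were singled out from the sums of the same members, so the higher shares among members follow in part from that choice. The other genes were matched by the range of counts only, not by how counts were spread within it. Neo replicate 1 was the highest library for 106 members, KO replicate 2 for 55 and WT for 16. A member's highest library held a median of 41.2% of its scaled level over the 7 libraries in type 1 and 40.5% in type 2, against 24.5% for the other genes of that count range. These 3 libraries include both sexes by Xist, since KO replicate 2 had 4.18 CPM of it and 60.7 CPM of the Y-linked gene Ddx3y.

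**Figure D2:**
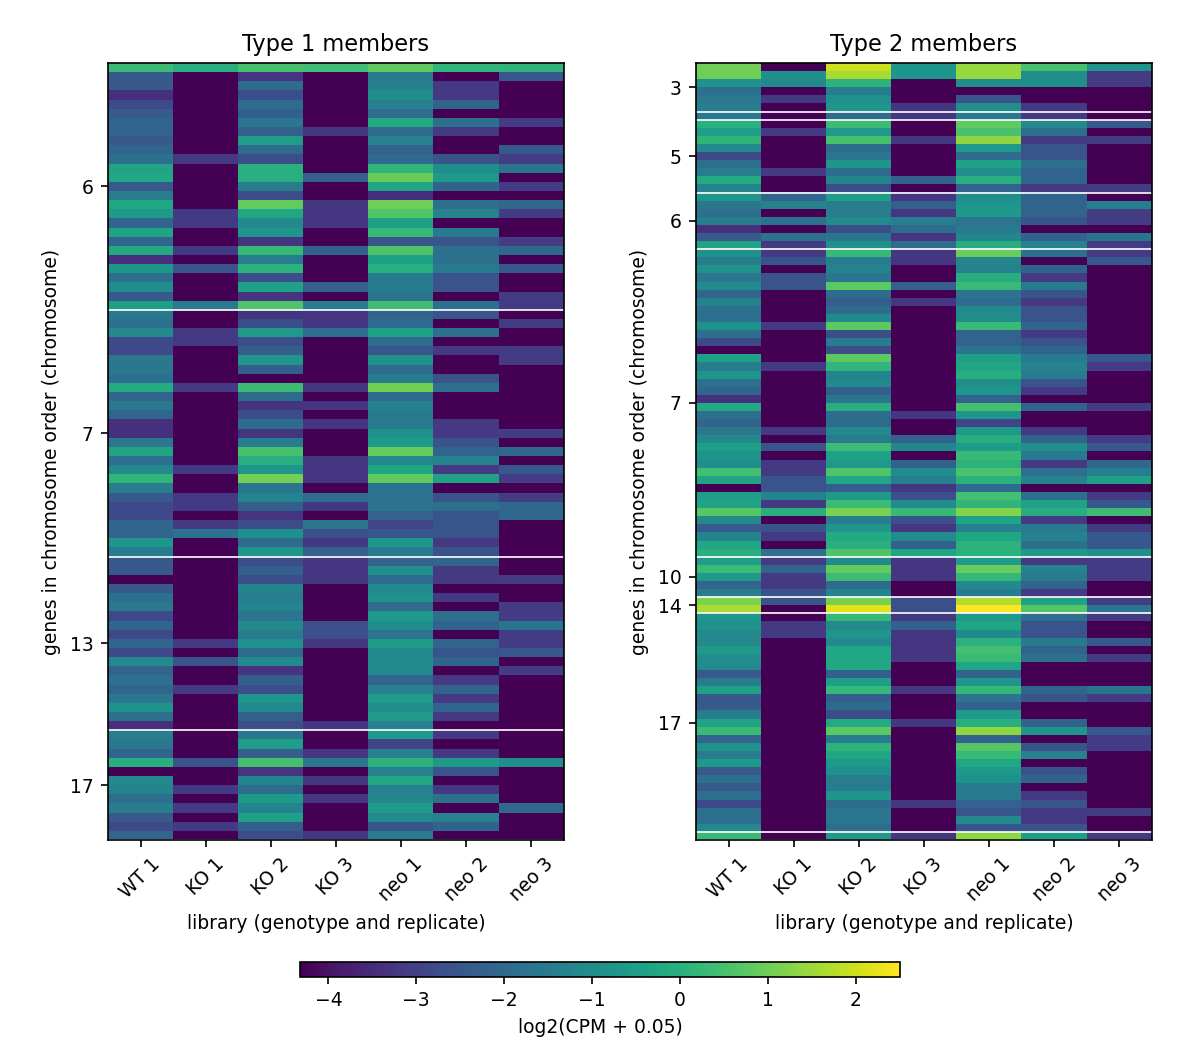
Level of each type 1 member (left) and type 2 member (right) in each library, as log2(CPM + 0.05), with genes as rows in chromosome order and white lines between chromosomes. Columns WT 1, KO 2 and neo 1 are bright through most rows, and columns KO 1, KO 3 and neo 3 are dark except for single rows such as Vmn1r4 (top row on the left).

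Among type 1 receptors, which are G protein-coupled receptors with a short extracellular end, the gene with the most counts did not follow this pattern. Vmn1r4 (chr6:56924015-56958100, plus strand) had 27 counts in WT, 15, 26 and 23 in KO, and 41, 18 and 16 in neo. Its libraries lay close together and KO and neo overlapped, with 20% of its level in its highest library. It made up 32.6% of all type 1 counts in KO replicate 1, whereas the most counted gene of neo replicate 1, Vmn1r71, made up 4.33% there. Of the 50-base windows of its exons, 99.0% were found in no other gene.

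The other leading type 1 genes were nearly absent from the low libraries. Vmn1r89 (chr7:13219339-13220289, plus strand) had 23 counts in WT, 0, 38 and 1 in KO, and 41, 12 and 1 in neo. Vmn1r32 (chr6:66552183-66559708, minus strand) had 17 in WT, 0, 33 and 1 in KO, and 46, 4 and 3 in neo. Vmn1r71 (chr7:10747502-10749538, minus strand) had 19 in WT, 1, 23 and 1 in KO, and 47, 4 and 0 in neo. For each of these 3 receptors both KO and neo ran from at most 3 counts to at least 23, so the groups overlapped.

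Vmn1r28 had 17 counts in WT, 0, 17 and 3 in KO, and 43, 10 and 0 in neo. Vmn1r85 had 16 in WT, 0, 26 and 0 in KO, and 42, 3 and 3 in neo. These receptors were high in the same 3 libraries as Vmn1r89. Vmn1r228, on chromosome 17, had 20 counts in WT, 2, 25 and 5 in KO, and 24, 10 and 7 in neo. Vmn1r51 had 15 in WT, 5, 28 and 6 in KO, and 30, 4 and 1 in neo, and was counted in every library.

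Among members with at least 30 counts, 3 had over 50% of their scaled level in 1 library, in each case neo replicate 1. Vmn1r18 had 20 of its 34 counts there, Vmn1r30 18 of 31 and Vmn2r31 21 of 35. Their shares of the level were 52.9%, 52.1% and 55.2%. KO replicate 2 had 5, 6 and 5 counts of these genes. Since they were picked for holding over 50% of their level in 1 library, a low share in the others follows from that choice.

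Among type 2 receptors, which carry a long extracellular domain, Vmn2r89 had the most counts. Vmn2r89 (chr14:51451962-51461293, plus strand) had 67 counts in WT, 0, 83 and 2 in KO, and 137, 26 and 4 in neo. Its neighbour Vmn2r88 (chr14:51411001-51419527, plus strand) had 48 in WT, 2, 39 and 2 in KO, and 76, 12 and 1 in neo. Both were high in WT, KO replicate 2 and neo replicate 1, and KO and neo overlapped for both.

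Of the family C receptors on chromosome 3, 6 of 7 were detected. Vmn2r1 (chr3:64081642-64105458, plus strand) had 43 counts in WT, 0, 72 and 10 in KO, and 63, 23 and 8 in neo. Vmn2r2 (chr3:64116432-64140543, minus strand) had 42 in WT, 8, 56 and 10 in KO, and 63, 8 and 1 in neo. The 6 genes together had 114 counts in WT, 16, 172 and 21 in KO, and 151, 40 and 10 in neo. This was a gene group whose highest library, scaled, was KO replicate 2, with neo replicate 1 at 69.7% of it. Vmn2r3 departed from the group, with 7 counts in KO replicate 1, 0 in KO replicate 3 and 11 in neo replicate 1.

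Other leading type 2 genes ranged as widely. Vmn2r105 on chromosome 17 had 26 counts in WT, 0, 31 and 0 in KO, and 59, 9 and 2 in neo. Vmn2r81 on chromosome 10 had 26 in WT, 3, 33 and 1 in KO, and 43, 6 and 1 in neo. Vmn2r10 on chromosome 5 had 23 in WT, 0, 26 and 1 in KO, and 60, 1 and 1 in neo. The intermediate library, neo replicate 2, was thus not intermediate for every receptor, with 1 count of Vmn2r10.

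Vmn2r121 on chromosome X had 25 counts in WT, 0, 11 and 1 in KO, and 58, 11 and 1 in neo. Vmn2r69 on chromosome 7 had 28 in WT, 1, 28 and 8 in KO, and 33, 4 and 5 in neo. Vmn2r74, from the same chromosome 7 cluster as Vmn2r69, had 35 in WT, 15, 40 and 21 in KO, and 54, 15 and 19 in neo. Vmn2r74 had at least 15 counts in every library, with 22.3% of its level in the highest.

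Levels between genes can be compared only per length, in TPM, which scales by transcript length and library size. Within a library, Vmn2r42 was the highest member in WT at 3.5 TPM, in KO replicate 2 at 3.75 TPM and in neo replicate 1 at 5.68 TPM, followed in each by Vmn1r37. The leading genes of the other libraries differed: Vmn2r20 in KO replicate 1 at 0.73 TPM, Vmn1r4 in KO replicate 3 at 0.85 TPM, and Vmn2r29 in neo replicates 2 and 3 at 3.04 and 1.26 TPM. Of the exon windows of Vmn2r42 and Vmn2r29 only 28.4% and 22.0% were found in no other gene. Their read counts were 18 and 27 in all, whereas RSEM also divides reads that map to several genes. Vmn2r29 had 0 counts in neo replicate 2 and 2 counts in neo replicate 3. Vmn1r37, with 58.6% of such windows and 85 counts, had 2.7 TPM in WT, 0.2, 3.07 and 0.63 TPM in KO, and 4.43, 0.86 and 0.49 TPM in neo. Every named level was a few TPM or less.

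The clusters in which these genes lie differed in how far they fell in the low libraries. Genes were joined into a cluster where they lay within 1.5 Mb of each other. The chromosome 17 cluster (chr17:17703941-23479597, 37 members of both types) had 286 counts in WT, 7, 366 and 20 in KO, and 549, 82 and 24 in neo. Scaled, KO replicates 1 and 3 and neo replicate 3 stood at 1.83%, 4.73% and 6.83% of the highest library. Most of its members had no read in those libraries, since 6, 14 and 11 of 37 were counted.

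In the type 2 cluster at chr7:84940169-87037968 the low libraries stood at a larger share of the highest. All of its 15 genes were members, and they had 211 counts in WT, 37, 250 and 87 in KO, and 348, 84 and 55 in neo. KO replicates 1 and 3 and neo replicate 3 stood at 15.3%, 32.4% and 24.7% of the highest library, with 11, 14 and 12 of 15 members counted. Vmn2r74, Vmn2r79 and Vmn2r70 lie in it, and 18 Olfr genes lie within its span. Those Olfr genes summed to 75.5 to 108 CPM over the 7 libraries, with 97.4 CPM in WT, 91.7, 88.6 and 75.5 CPM in KO, and 108, 94.2 and 100 CPM in neo.

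The type 2 cluster at chr6:123308333-124231784 had 7 members and a similar share in the low libraries. It had 50 counts in WT, 18, 48 and 20 in KO, and 81, 20 and 12 in neo. KO replicates 1 and 3 both stood at 32.0% of the highest library and neo replicate 3 at 23.1%. Vmn2r22, one of its genes, had 6 counts in WT, 6, 6 and 3 in KO, and 13, 3 and 5 in neo, which is near level.

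The largest shares in the low libraries were those of a type 1 cluster with few counts, at chr7:20101158-24055691. Its 5 members had 15 counts in WT, 7, 22 and 12 in KO, and 21, 12 and 7 in neo. KO replicates 1 and 3 and neo replicate 3 stood at 36.4%, 56.2% and 39.5% of the highest library, KO replicate 2.

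**Figure D3:**
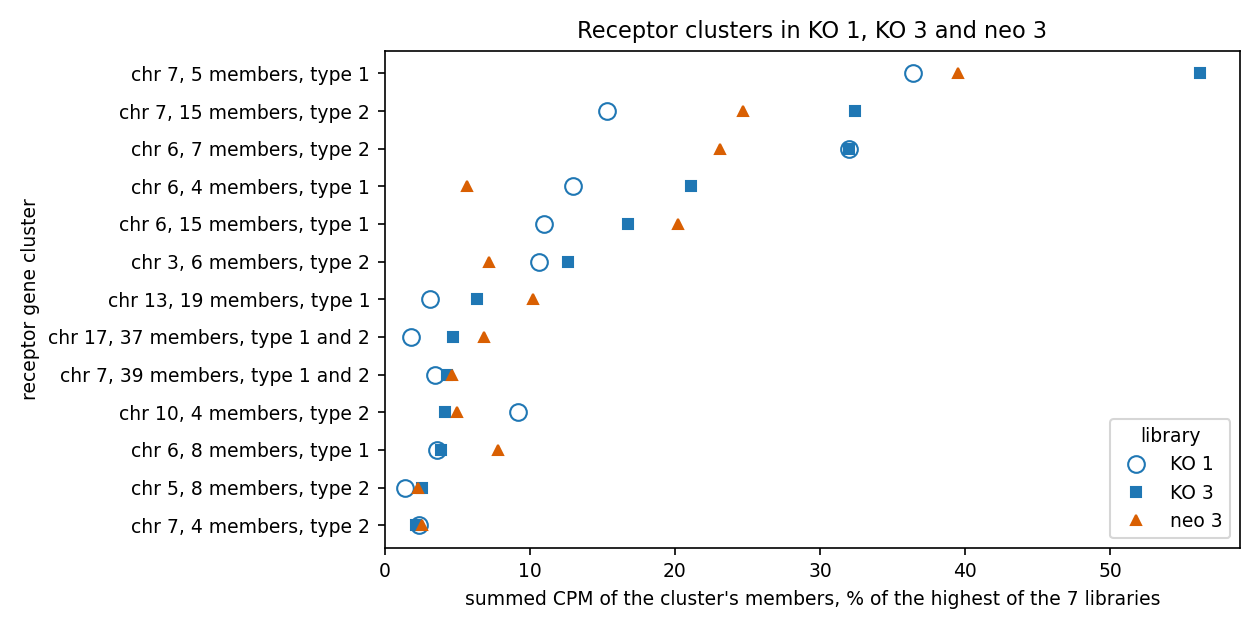
Summed level of each receptor cluster of at least 4 members in KO replicate 1, KO replicate 3 and neo replicate 3, as a percent of the cluster's highest library. The 15-member cluster on chromosome 7 and the 7-member cluster on chromosome 6 lie at 15.3% to 32.4%, the 5-member type 1 cluster on chromosome 7 lies at 36.4% to 56.2%, and the 37-member cluster on chromosome 17 lies at 1.83% to 6.83%.

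Set apart after their values were seen, the chromosome 7 cluster of 15 genes and Vmn1r4 together held 14.6% of member counts in WT, 36.9%, 14.1% and 44.5% in KO, and 12.9%, 18.6% and 37.6% in neo. Without them the remaining members summed to 63.9 CPM in WT, 5.45, 89.9 and 7.57 CPM in KO, and 111.8, 26.6 and 7.84 CPM in neo. Since these genes were picked after they were seen to fall less than most in the low libraries, the wider split without them follows from that choice. They were not the genes that fell least. The clusters at chr6:123308333-124231784 and chr7:20101158-24055691 stood at similar or larger shares and stayed among the remaining members. What sets them apart was not tested.

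Of the members with at least 30 counts, 7 of 30 type 1 and 9 of 57 type 2 genes had other libraries among their 3 highest. In 9 of these 16 genes KO replicate 2, neo replicate 1 and neo replicate 2 came highest, with the WT library replaced. The others were Vmn1r4, Vmn1r199, Vmn2r3, Vmn2r22, Vmn2r24, Vmn2r77 and Vmn2r121.

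In the comparison of neo with KO, edgeR's quasi-likelihood test with Benjamini-Hochberg adjustment found 0 of 12 tested members changed (4 type 1, 8 type 2), against 0.017% of all 17638 genes tested. At an unadjusted p below 0.05 the count was also 0, against 9.32% of all genes. Members passed the filter on low counts only where enough of the 6 libraries counted them, and the other members had no test there. KO replicate 2, neo replicate 1 and neo replicate 2 held the most receptor reads, so the filter favoured members counted in 2 neo libraries and 1 KO library. Vmn2r121, for example, had 11 counts in KO replicate 2 and 58 and 11 in neo replicates 1 and 2. The direction among tested members can thus be set in part by the filter. Of the 12 members, 11 had a higher fitted level in neo, with a median log2 difference of 0.30 in type 1 and 0.46 in type 2 and of -0.002 over all genes. Without neo replicate 1, 2 of 10 tested members were higher in neo, with a median of -0.53. Without KO replicate 2, 10 of 10 were, with a median of 1.99.

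The members with the smallest p were Vmn2r121, Vmn2r70 and Vmn2r88 in type 2 and Vmn1r28, Vmn1r4 and Vmn1r228 in type 1. Vmn2r121 differed by 2.31 on the log2 scale (SE 1.32, edgeR adjusted p = 0.646), and neo and KO overlapped. Vmn2r70 differed by 0.73 (SE 0.61, edgeR adjusted p = 0.753). Vmn1r28 differed by 1.22 (SE 1.31, edgeR adjusted p = 0.828). Vmn1r4 had the narrowest error, with a difference of 0.14 (SE 0.33, edgeR adjusted p = 0.933). With standard errors above 1 on the log2 scale, as for Vmn2r121 and Vmn1r28, 2-fold differences were not detectable.

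With no filter on counts, all 181 members entered the edgeR test and 0 were called, against 0.13% of 30780 genes. Of these, 5 type 1 members were higher in neo at an unadjusted p below 0.05, against 3.51% of all genes, and 0 were lower, against 3.33%. They were Vmn1r69, Vmn1r82, Vmn1r176, Vmn1r213 and Vmn1r229, each with 11 to 16 counts in all. DESeq2 called 0 members as well, against 0.313% of all genes, with 0 at an unadjusted p below 0.05, against 5.07%. An adjusted p was given by DESeq2 for 12 type 1 and 36 type 2 members, and the others could not be called by it. The limma test on log2(TPM + 0.1) called 0 of 174 members, against 0.0235% of all genes, with 3 at an unadjusted p below 0.05, against 5.35%. Of the 45 members with an adjusted p in the authors' deposited table, 0 were called, the lowest being 0.655 for Vmn2r121, against 0.429% of all genes there.

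Counting libraries that do not overlap gave the same picture. All 3 neo libraries lay above all 3 KO libraries for 4 type 1 members and 0 type 2 members, against 7.04% of other genes of the same count range. All 3 lay below for 0 members, against 4.99%. The 4 genes, named after their values were seen, were Vmn1r36, Vmn1r82, Vmn1r175 and Vmn1r176, with 11 to 20 counts in all.

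Against the single WT library, 101 members passed the filter (38 type 1, 63 type 2) and 0 were called in either comparison. Of all genes 0.00523% were called in KO against WT and 0.0105% in neo against WT. At an unadjusted p below 0.05 there were also 0 members in each, against 0.727% and 2.97% of all genes. DESeq2 also called 0 members in both, against 0.00319% of all genes for KO and 0.00957% for neo. The limma test on TPM called 0 members in both, against 0.429% and 0.456%. The median log2 difference from WT was -0.60 in type 1 and -0.84 in type 2 for KO, and -0.08 and -0.19 for neo. Without KO replicate 2 the KO median over 89 tested members was -3.56, with 0 members higher than in WT. Without neo replicate 1 the neo median over 65 tested members was -1.76. WT has no replicate, so its error was taken from the other groups, and the comparisons share that library. By Xist and Ddx3y the WT library was female and every KO library male. Ddx3y was at 0.046 CPM in WT and at 60.7 to 77.2 CPM in KO. Sex and genotype thus cannot be told apart in KO against WT.

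Markers of vomeronasal neurons were read beside the receptors, from a list of 16 genes that define them and 10 that other neurons share. The 16 defining genes summed to 14.0 CPM in WT, 3.3, 18.9 and 3.97 CPM in KO, and 20.1, 7.17 and 3.59 CPM in neo. These are the same libraries, in the same order from high to intermediate, as for the receptors. The H2-M genes among them were high in the same libraries but in another order. They summed to 2.48 CPM in WT and to 2.09 CPM in both KO replicate 2 and neo replicate 1. One of the 16 passed the count filter, 0 were called, and 6 had WT, KO replicate 2 and neo replicate 1 as their 3 highest libraries. The genes Trpc2 and Fpr-rs7 of that list were at 0 counts in every library.

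Calr4, a calreticulin chaperone of vomeronasal neurons, made up most of that sum. It had 226 counts in WT, 50, 288 and 64 in KO, and 398, 91 and 45 in neo. It was not at 0 in the low libraries, and neo and KO differed by 0.22 on the log2 scale (SE 0.94, edgeR adjusted p = 0.964). Tfap2e, the AP-2 factor of basal vomeronasal neurons, had 21 counts in WT, 0, 20 and 1 in KO, and 12, 6 and 4 in neo.

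The 9 H2-M genes, which include the partners of type 2 receptors, summed to 54 counts in WT, 2, 39 and 5 in KO, and 49, 23 and 5 in neo. H2-M10.3 was the most counted, with 14 in WT, 0, 20 and 2 in KO, and 11, 3 and 1 in neo. H2-M10.2 differed from it, with 6 in WT, 1, 1 and 2 in KO, and 9, 9 and 4 in neo. The 4 formyl peptide receptor genes Fpr-rs, a small further receptor class of the organ, summed to 15 counts at most.

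The channel gene Trpc2 lies within the span of Xntrpc on chromosome 7 and overlaps that of Xndc1. Xntrpc had 47 counts in WT, 19, 38 and 25 in KO, and 61, 28 and 28 in neo. Reads shared by overlapping genes are ambiguous and enter no gene count, and their part in the 0 counts of Trpc2 was not tested. The deposited RSEM estimates, which divide such reads, gave Trpc2 1.13 TPM in WT, 0, 0.47 and 0 TPM in KO, and 0.88, 0.05 and 0.06 TPM in neo. WT, KO replicate 2 and neo replicate 1 were again the highest. An estimate listed at 0 may be a failed split rather than absence.

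**Figure D4:**
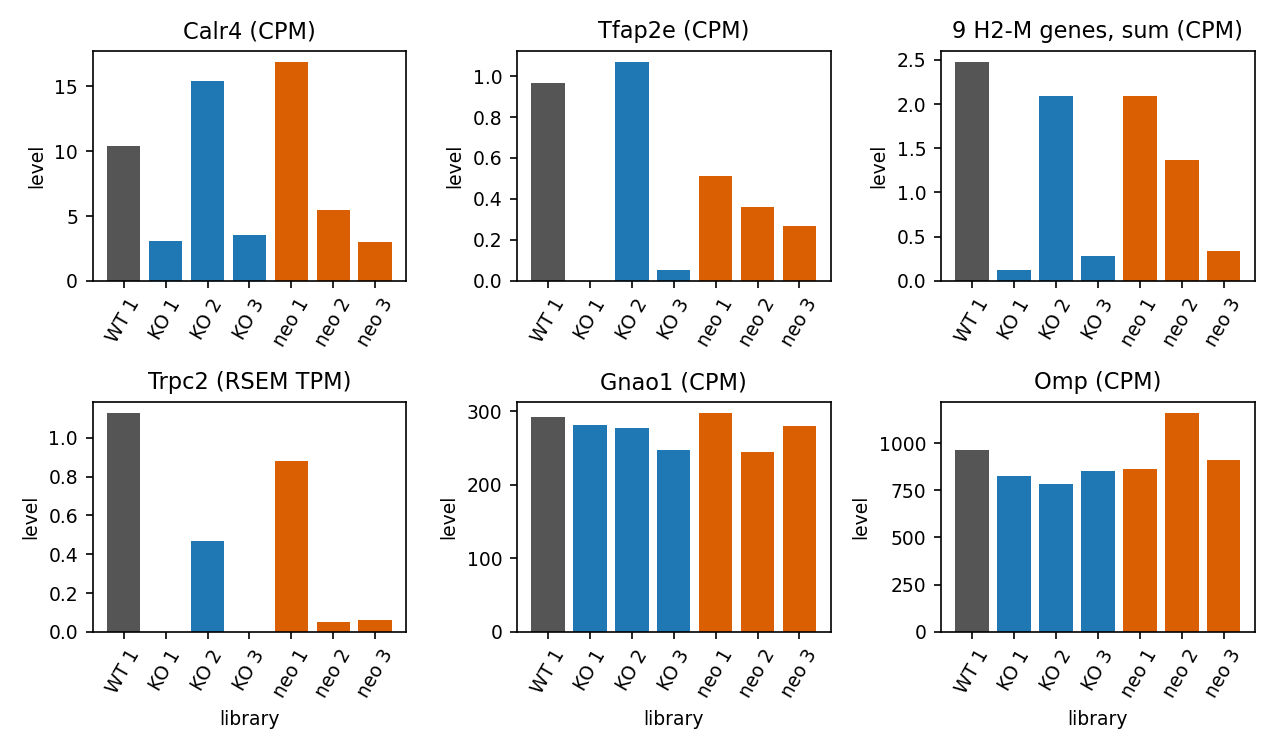
Level of 3 vomeronasal markers or marker groups and of Trpc2 in each library, beside Gnao1 (Gαo) and Omp, which the main epithelium also expresses; bars start at 0 and are single libraries, in CPM or, for Trpc2, RSEM TPM. The first 4 panels are high in WT 1, KO 2 and neo 1, and Gnao1 stays between 244.3 and 297.9 CPM.

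Genes that vomeronasal and other neurons share did not move with the receptors. The list of 10, with Gnai2 (Gαi2), Gnao1 and Omp among them, summed to 1841.7 to 2087.0 CPM, with 0 called and a median log2 difference between neo and KO of 0.02. Gnai2 lay between 152.2 and 178.8 CPM and Gnao1 between 244.3 and 297.9 CPM. Of these 10 genes 1, Bcl11b, had the same 3 highest libraries as the receptors.

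Markers of other tissue in the sample had other orders. The 8 genes of mature olfactory neurons summed to 2629.2 to 3402.3 CPM and the 5 cartilage genes of the septum to 104.2 to 139.2 CPM, and 0 of either list had the receptors' 3 highest libraries. The 3 respiratory genes summed to 272.8 CPM in WT, 403.0, 202.9 and 222.5 CPM in KO, and 145.1, 340.5 and 304.5 CPM in neo. The 2 gland genes Lcn3 and Lcn4, lipocalins of vomeronasal and septal glands, summed to 475.5 CPM in WT, 354.8, 248.2 and 161.4 CPM in KO, and 480.6, 680.5 and 288.5 CPM in neo, with neo replicate 2 highest. The 3 bone genes were lower in neo, with a median log2 difference of -1.11, 3 at an unadjusted p below 0.05 and 0 called. The 5 genes of guanylate cyclase D and Grueneberg ganglion neurons, other chemosensory cells of the nose, summed to 82.7 to 99.3 CPM. Most of that sum was Car2, at 79.2 to 95.9 CPM, whereas Gucy2d lay between 1.59 and 3.15 CPM. Pde2a, also on that list, had at most 4 counts in a library but 7.0 to 10.51 TPM, so the sum hardly includes it. The list of Trpc2 and Gucy1b2, which mark a sparse cell type of the main epithelium, summed to 2.69 to 6.51 CPM, all of it Gucy1b2. The part that any of these tissues has in the receptor levels was not tested.

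Reads that map to several places were not counted, so the likeness of the receptor genes to each other was read beside their counts. Of the type 1 genes 50 had no count, 71 had 1 to 9 and 85 were members. Their median shares of 50-base exon windows found in no other gene were 3.4%, 90.9% and 95.1%. Of the 50 genes with no count 31 had under 10% of such windows, and 21 had none. In type 2 the 4 genes with no count had a median of 11.8%, the 21 with 1 to 9 counts 61.9% and the 96 members 84.8%. Type 1 genes with 1 to 9 counts were thus close to the members in this share, and the genes with no count were far below both. The part of likeness in the counts was not tested.

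The type 1 cluster at chr7:20101158-24055691 holds 65 genes, of which 41 had no count and 5 were members. A gene without counts is not shown to be silent. In exons, 7 type 1 members overlapped another gene on the same strand and 6 on the opposite strand, as did 6 and 6 type 2 members.

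**Figure D5:**
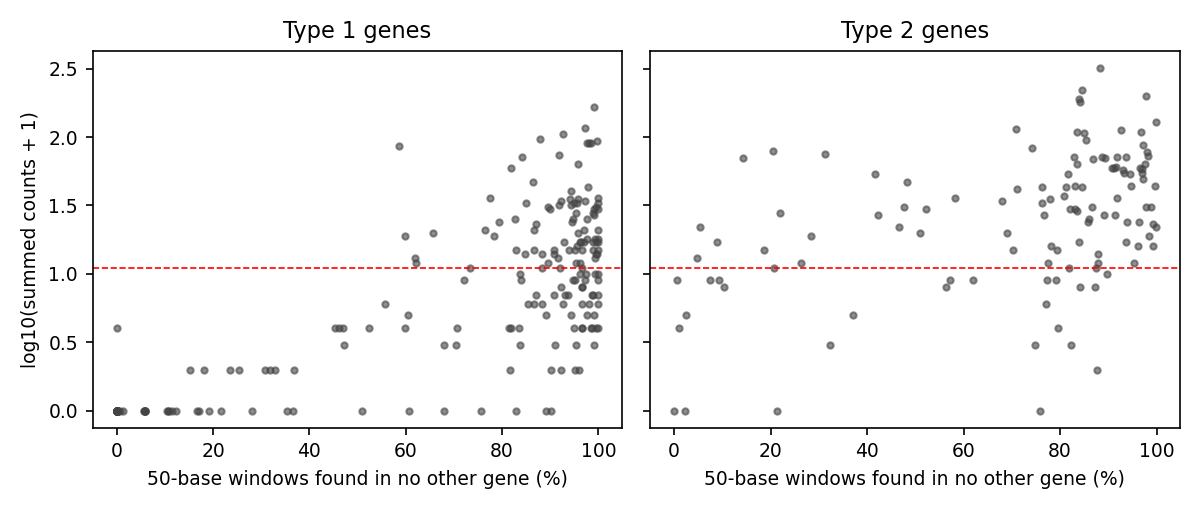
Summed counts of each type 1 gene (left) and type 2 gene (right) over the 7 libraries, as log10(counts + 1), against the percent of its 50-base exon windows found in no other annotated gene. The dashed line marks 10 counts, and type 1 genes near 0% lie at the bottom with no counts.

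The threshold cut through a continuous range of totals. At 10 counts, just inside, were Vmn1r191, Vmn1r31, Vmn1r60, Vmn1r65, Vmn2r97, Vmn2r56 and Vmn2r62. At 9 counts, just outside, were Vmn1r215, Vmn1r52, Vmn1r70, Vmn1r78, Vmn1r181 and Vmn2r16. The median member had 20 counts in type 1 and 35.5 in type 2.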

How the data were processed

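Counts, TPM and the authors' comparison were read for 7 libraries of poly(A) RNA made with the KAPA RNA Hyperprep kit, per the labels' protocols. Integer counts of reads per gene are the authors' deposited values; the submitters' processing notes name Trimmomatic 0.35, STAR 2.5.1b, RSEM and DESeq2 1.18.1 on GRCm38 (mm10), with no role for each, and the table's name says that counting was stranded. Its 4 summary rows name no gene and entered no library size or test (unmapped 3.32 to 4.38% of reads, several places 14.5 to 19.6%, no feature 14.2 to 17.4%, ambiguous 0.666 to 0.865%). The deposited TPM values per gene are RSEM estimates per the file headers. The authors' deposited comparison of KO with neo gives log2 fold changes and p-values, per the file headers; its signs were turned to neo over KO.

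The detected genes and all marker lists were chosen with earlier results of these data known. The quasi-likelihood test of edgeR 4.0.16 in R 4.3.3, two-sided and robust, was run on the counts after TMM and filterByExpr (minimum count 10, total 15), with p-values adjusted by Benjamini-Hochberg over all genes and a threshold of 0.05, in the 6 KO and neo libraries or, against WT, in all 7. The spread of WT is assumed to be that of the other groups. Sums over members were given per library, with exact Poisson 95% intervals. The alternatives tried were no filter, RLE factors, TMM with receptor genes removed, 50 counts in 3 libraries, DESeq2 1.42.0, limma 3.58.1 on log2(TPM + 0.1), each replicate left out, other libraries in the fit and a replicate block. Leaving out KO replicate 2 and neo replicate 1 together was added after the data were seen. The script for the tests was tested on simulated data.

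Genes were named by rule: the 8 type 1 and 10 type 2 members with the most counts, the 3 per type with the smallest p in neo against KO, members with at least 30 counts and over 50% of the level in 1 library, those at the threshold, and the marker genes; other names were chosen after their values were seen. Exons came from GENCODE vM21, matched for 292 of 327 genes by identifier and 35 by symbol. Promoters came from RefSeq on GRCm38.p6. The lowest chi-square per degree of freedom between any 2 libraries was 9.58, so each counted as 1 sample.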

Additional observations from a re-analysis of the deposited data

How the results depend on the processing

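No member was called in any of the 3 comparisons under any alternative that gave a value, 14 for neo against KO and 13 for each comparison with WT, and 0 of the defining vomeronasal markers were called in 8 alternatives. A filter of 50 counts in 3 libraries left 0 members in neo against KO and gave no value there. The summed log2 ratio of neo over KO ran from -0.74 to 2.46 in type 1 and from -1.0 to 2.33 in type 2 when each replicate was left out in turn, both highest without KO replicate 2 and lowest without neo replicate 1. Both left out together, the ratios were 1.16 and 0.94. When each replicate was left out, Vmn2r88 ran from -0.96 to 3.53, Vmn1r4 from -0.16 to 0.27 and Calr4 from -0.80 to 1.38. Vmn1r228 ran from -0.18 to 0.48 over the 4 omissions in which it was tested, since it failed the count filter without KO replicate 2 and without neo replicate 1. Vmn1r4 was at -0.03 without KO replicate 2 and neo replicate 1. In neo against KO the number of members tested ran from 2 to 181 over the alternatives that tested any. In each comparison with WT it ran from 1 to 181, with 1 under the filter of 50 counts in 3 libraries.

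Replicate numbers of the titles paired no samples: deviations of same-numbered KO and neo libraries correlated at -0.1, -0.0535 and 0.194. With the replicate block, 0 of 12 tested members were called and the median log2 difference was 0.59. What could be detected differed between receptors with the spread between libraries: the standard error of the log2 difference was 0.33 for Vmn1r4 and 0.44 for Vmn2r74, and 1.69 for Vmn2r89, which had more counts than either.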

Other observations

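Genes outside the receptor families whose pattern over the 7 libraries was most like that of the receptors were searched for, with a rule made after the data were seen. Among 18483 genes with at least 50 counts, 51 had WT, KO replicate 2 and neo replicate 1 as their 3 highest libraries and a third-highest level at least 1.5 times the fourth. Of these 51 genes 33 were receptor members, out of 51 members with at least 50 counts, and 18 were not members. These 18 include the receptor pseudogene Vmn1r-ps14. Vil1, which encodes the microvillus protein villin, had 79 counts in WT, 1, 66 and 12 in KO, and 94, 24 and 6 in neo. The transcript Gm36028 had 96 in WT, 8, 104 and 8 in KO, and 164, 34 and 3 in neo. Fezf2, a zinc finger transcription factor, had 15 in WT, 1, 17 and 0 in KO, and 21, 5 and 3 in neo. Slc5a7, the choline transporter, had 41 in WT, 3, 14 and 2 in KO, and 15, 4 and 3 in neo. Calr4 and H2-M10.3 also met the rule. Xist met the rule with 13995 counts in WT and 26883 in neo replicate 1, but with only 78 in KO replicate 2, against 34 in KO replicate 1. Dhrs7c and Smyd1 met it too, but with 98 and 188 counts in neo replicate 1 and at most 6 and 14 in any other library.

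Receptor pseudogenes, which the symbol rule left out, gave the same order of the high libraries. Of 110 type 1 pseudogenes 25 had a count and 7 had at least 10. Of 106 type 2 pseudogenes 37 had a count and 13 had at least 10. Type 1 pseudogenes summed to 40 counts in WT, 3, 43 and 8 in KO, and 74, 15 and 4 in neo. Type 2 pseudogenes summed to 99 in WT, 10, 152 and 13 in KO, and 202, 31 and 11 in neo. The most counted were Vmn1r-ps14, with 59 counts, and Vmn2r-ps159, with 135.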
